A study of Mus musculus with 4 samples.

Results

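A set of 33 genes of endoplasmic reticulum (ER) protein folding and the integrated stress response was followed in mouse osteoclast cultures with and without a p38α kinase inhibitor. They are the sensors and transcription factors of the unfolded protein response, the targets of its ATF4 and CHOP branch together with the constitutive eIF2α phosphatase subunit gene Ppp1r15b, the ER chaperones and folding enzymes, and the genes of ER-associated degradation. They were taken from a list of 33 symbols, keeping gene models with at least 40 counts summed over the 4 libraries. All 33 passed, out of 23390 gene models in the table and 13214 tested. The member with the fewest counts was Trib3, at 207. The symbol Ddit3 maps to 2 gene models, of which the one without counts was left out.

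Marrow cells of wild-type C57BL/6J mice were grown for 3 days in medium conditioned by L929 fibroblasts, a source of M-CSF equal to 20 ng/ml. The attached macrophages were reseeded and then received 40 ng/ml RANKL, the cytokine that drives osteoclast formation. The control group of 2 libraries received the solvent DMSO, and the treated group of 2 libraries received 10 µM BMS-582949. RNA was extracted at day 4, after 3 or 4 days with the compound, depending on which of the submitters' texts is followed. Nothing in the labels ties the 2 libraries of a group to different mice or dishes, and p-values rest on the spread between them, which may be technical.

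The ER folds secreted and membrane proteins, and its load is sensed by the membrane proteins IRE1 (gene Ern1), PERK (Eif2ak3) and ATF6. PERK and related kinases phosphorylate the initiation factor eIF2α, which lowers general translation and favours translation of the transcription factor ATF4; ATF4 in turn induces CHOP (Ddit3) and genes of amino acid supply. IRE1 splices the Xbp1 mRNA, and ATF6 is released by cleavage, so the activity of these sensors is set largely after transcription and is not measured by counts per gene. Osteoclasts secrete large amounts of acid hydrolases and proteases through this compartment.

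Depth ranged from 35331889 to 39255925 counts a library. Levels are given as CPM (counts relative to the TMM-scaled library total), and fold changes as BMS-582949 minus DMSO on the log2 scale. A gene was called when the edgeR quasi-likelihood test gave a Benjamini-Hochberg adjusted p under 0.05 over all 13214 genes. The osteoclast markers fell in 10 of 10 cases, with summed levels of 99133 and 103354 CPM in DMSO and 12156 and 12315 CPM with the inhibitor. Macrophage markers rose in 6 and fell in 2 of 10 cases (10618 to 10845 CPM in DMSO, 11286 to 12075 CPM treated), and proliferation genes rose in 8 of 8 (514 to 527 against 1514 to 1540 CPM). Of the plasma cell genes, which mark cells with an enlarged ER, Jchain had 25 counts and Mzb1 5 counts over all libraries. The 7 B and plasma cell genes summed to 552 and 593 CPM in DMSO and 224 and 208 CPM treated, nearly all from Sdc1 and Prdm1, which both fell and are named after their values were seen. Fibroblast markers summed to 703 to 767 CPM in DMSO and 497 to 501 CPM treated, with 5 of 8 tested genes lower and 1 higher, and Col1a1 at 324 and 305 against 212 and 215 CPM. The part of these cell types in the results below was not tested, and in whole cultures fewer cells of a type and less RNA per cell cannot be told apart.

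With BMS-582949, 17 of the 33 genes fell and 8 rose. Among those that fell were Eif2ak3, Atf4 and Ddit3, which encode PERK, ATF4 and CHOP. Of the members, Ddit4, Ppp1r15a, Chac1, Edem1 and Ddit3 fell the most, by 2.11-fold to 5.92-fold. Of the 14 chaperone and folding genes, 5 rose, among them Pdia4 (1.34-fold) and Hyou1, and 4 fell, among them Dnajb9 (1.92-fold) and Calr (1.91-fold). The other 5, Hspa5, Pdia3, Canx, Sdf2l1 and Manf, were not called in the analysis described here. With library size only each of them was called higher, by 0.29 (Manf) to 0.53 (Canx) on the log2 scale. The 25 called members are 75.8% of the set, against 60.2% of all tested genes; 30.5% of all tested genes were called higher and 29.7% lower. A change of at least 2-fold was called for 5 members, all lower; among all genes 21.3% changed by that much, 11.3% lower and 9.94% higher. The groups did not overlap for 29 members, as for 80.2% of all tested genes.

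These directions are relative to the scaling. The median log2 fold change was -0.20 for the members and 0.03 for all tested genes; with library size only, without TMM, these medians were 0.18 and 0.41, and 16 members were called higher and 11 lower. Without BMS-582949 replicate 2 the members' median was -0.30. In each of 13 alternative fits (other scalings, filters and tests, blocks and left-out libraries), 11 members were called lower and 6 higher as in the analysis described here. The lower ones were Ern1, Eif2ak3, Atf4, Ddit3, Chac1, Ddit4, Ppp1r15a, Dnajb9, Calr, Herpud1 and Edem1, and the higher ones Ppp1r15b, Hsp90b1, Hyou1, Pdia4, Sel1l and Derl2.

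**Figure D1:**
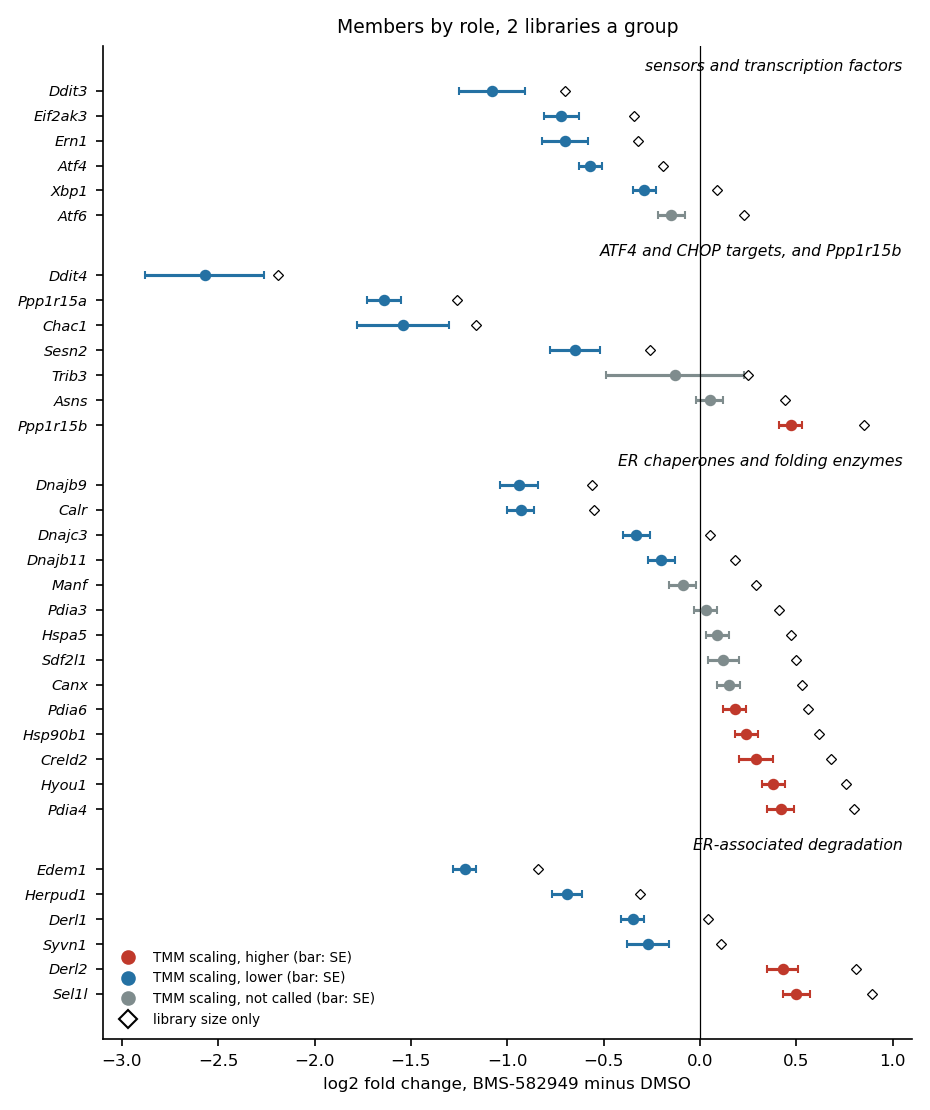
Log2 fold change (BMS-582949 minus DMSO, x axis) of each of the 33 members, grouped by role, with the standard error as a bar and colour for the call under TMM scaling; open diamonds give the value with library size only. Ddit4 lies furthest to the left at -2.57 and Sel1l furthest to the right at 0.50, and every diamond lies to the right of its TMM value.

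Of the 6 sensors and transcription factors, 5 fell and 1, Atf6, was not called (median log2 fold change -0.64). With library size only the median was -0.25, and 4 were called lower and Atf6 higher. Among all tested genes, 29.7% were called lower and 30.5% higher (median 0.03, and 0.41 with library size only). Eif2ak3, which encodes the kinase PERK and lies on chromosome 6 (70844515 to 70905245, GRCm38), was at 47.2 and 52.4 CPM in DMSO and 29.7 and 30.8 CPM with BMS-582949. Both treated libraries were lower, and the change was -0.72 ± 0.09 on the log2 scale (SE, edgeR adjusted p = 2.4e-05). Ern1, the gene of the kinase and RNase IRE1 (chromosome 11, 106394650 to 106487852), was at 25.7 and 30.3 CPM in DMSO and 18.3 and 16.2 CPM treated. Its change was -0.70 ± 0.12 (SE, edgeR adjusted p = 3.7e-04), and the groups did not overlap.

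The third sensor gene, Atf6 (chromosome 1, 170704674 to 170867771), had 103 and 94.7 CPM in DMSO and 91.8 and 86.4 CPM treated. These groups lie close together, and the change of -0.15 ± 0.07 was not called (edgeR adjusted p = 0.076). Leaving out DMSO replicate 2 (-0.21) or BMS-582949 replicate 1 (-0.20) gave a call, as did RLE scaling (-0.18). The sensors also differ in level. Per kilobase of merged exon, Atf6 was at 10.7 CPM, Eif2ak3 at 8.27 and Ern1 at 3.43 in DMSO.

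Atf4 (chromosome 15, 80255184 to 80257541), whose protein activates amino acid and stress genes, was at 346 and 356 CPM in DMSO and at 233 and 239 CPM with the inhibitor. The change was -0.57 ± 0.06 (SE, edgeR adjusted p = 3.7e-06), and -0.19 with library size only (adjusted p = 0.0098). Ddit3, which encodes the pro-apoptotic factor CHOP, fell further, from 9.94 and 9.67 CPM to 5.13 and 4.14 CPM. Its change was -1.08 ± 0.17 (SE, edgeR adjusted p = 1.4e-04) on counts of 309, 305, 232 and 175. Ddit3 lies on chromosome 10 (127290774 to 127296288), and 10.9% of its exon bases are shared with another gene model. Xbp1 (chromosome 11, 5520659 to 5525893), the substrate of IRE1, was at 192 and 195 CPM in DMSO and 156 and 161 CPM treated. That is -0.29 ± 0.06 (edgeR adjusted p = 9.8e-04), a call that ended with library size only, where the value was 0.09. The counts do not separate spliced from unspliced Xbp1.

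The 6 ATF4 and CHOP targets and Ppp1r15b ranged from -2.57 to 0.47. Of these 7 genes, 4 fell, 1 rose and 2 were not called (median -0.65). The called share was 71.4%, against 60.2% of all tested genes. With library size only 3 fell, 2 rose and the median was -0.26. Ddit4, which encodes the mTORC1 inhibitor REDD1, was at 5.37 and 4.02 CPM in DMSO and 0.685 and 0.898 CPM treated. All 4 values are low (167, 127, 31 and 38 counts), and the groups are well apart. It fell by 2.57 on the log2 scale (SE 0.31, edgeR adjusted p = 1.3e-05), which is 5.92-fold. Chac1, an enzyme that degrades glutathione, had 5.24 and 7.38 CPM in DMSO and 1.97 and 2.36 CPM treated. Its change was -1.54 ± 0.24 (SE, edgeR adjusted p = 1.3e-04). Sesn2, a leucine-binding inhibitor of mTORC1, was at 16.4 and 19.1 CPM against 12.0 and 10.7 CPM. The change of -0.65 ± 0.13 was called (edgeR adjusted p = 7.7e-04), but not with library size only (-0.26, adjusted p = 0.090).

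The pair of regulatory subunits that bring protein phosphatase 1 to eIF2α moved in opposite directions. Ppp1r15a encodes GADD34, the stress-induced subunit that reverses eIF2α phosphorylation (chromosome 7, 45522916 to 45526268). It was at 79.8 and 77.2 CPM in DMSO and 27.0 and 23.2 CPM with BMS-582949, and changed by -1.64 ± 0.09 (SE, edgeR adjusted p = 9.2e-09). Ppp1r15b encodes CReP, the constitutive subunit (chromosome 1, 133131143 to 133139783). Its levels were 71.7 and 73.9 CPM in DMSO and 101 CPM in both treated libraries, a change of 0.47 ± 0.06 (SE, edgeR adjusted p = 3.7e-05). Of its exon bases, 11.4% are shared with another gene model.

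A ratio of 2 genes within a library does not depend on scaling. The count of Ppp1r15a divided by that of Ppp1r15b was 1.11 and 1.04 in DMSO and 0.267 and 0.230 with the inhibitor, 4.34-fold lower. The pairs compared in this way were chosen after their values were seen, and with 2 libraries a group the exact two-sided permutation test cannot give a p below 0.333, the value it gave for each pair. Ddit3 over Atf4 was 0.0288 and 0.0272 in DMSO and 0.0220 and 0.0173 treated. CHOP mRNA was thus 1.42-fold lower relative to that of ATF4 as well.

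**Figure D2:**
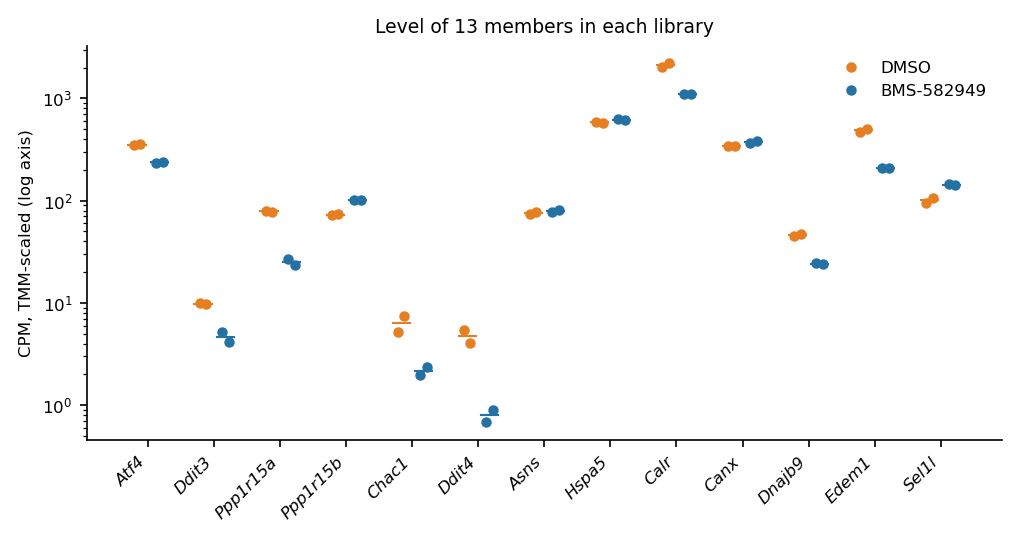
TMM-scaled CPM (log axis) of 13 members in each library, with DMSO in orange, BMS-582949 in blue and the mean as a bar. Ppp1r15a and Ppp1r15b start from like levels in DMSO (78.5 and 72.8 CPM on average) and end at 25.1 and 101 CPM, and the Hspa5 and Asns groups lie close together.

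Among the same targets, Asns and Trib3 were not called. Asns, the asparagine synthetase gene and a standard readout of ATF4, was at 74.7 and 77.6 CPM in DMSO and 76.6 and 81.5 CPM treated. The groups overlap, and the change of 0.05 ± 0.07 was not called (edgeR adjusted p = 0.51), though it was with library size only (0.44). Trib3, a pseudokinase gene induced by CHOP, was between 1.19 and 1.51 CPM in all 4 libraries (44 to 62 counts). Its change of -0.13 ± 0.36 carries a standard error too wide to place it (edgeR adjusted p = 0.78).

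Other ATF4 targets, from a list of 23 genes of which 22 were tested, went both ways: 11 rose and 6 fell (median 0.36). The called share was 77.3%, against 60.2% of all tested genes. With library size only 14 rose and 4 fell, against 6738 and 2240 of all 13214 tested genes. The amino acid transporter gene Slc7a5 went from 20.4 and 23.6 CPM to 70.3 and 69.5 CPM (1.67 ± 0.09 SE, edgeR adjusted p = 9.3e-09). Psat1, an enzyme of serine synthesis, went from 53.0 and 54.7 to 151 and 157 CPM (1.52). The glutamine transporter gene Slc1a5 was at 288 and 322 CPM in DMSO and 130 and 131 CPM treated (-1.22), and the stress-responsive gene Ndrg1 changed by -1.12.

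**Figure D3:**
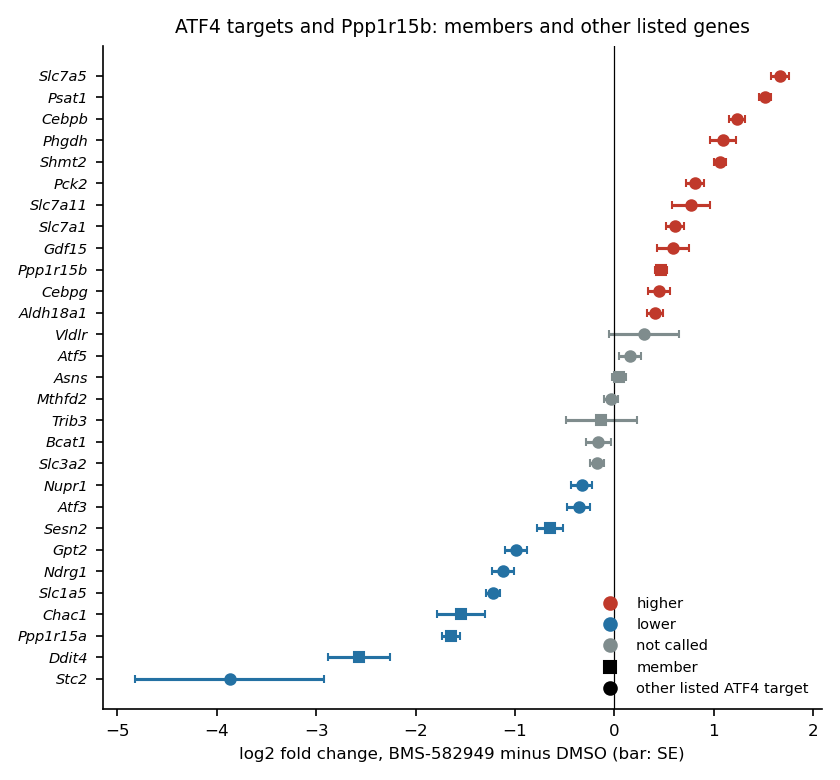
Log2 fold change (BMS-582949 minus DMSO, x axis, bar: standard error) of the 6 member targets and Ppp1r15b (squares) and 22 other listed ATF4 targets (circles), ordered by value and coloured by call. Slc7a5 is at the top at 1.67; the lowest gene, Stc2, named after its value was seen, rests on 49 counts in all, and Ddit4 follows at -2.57.

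ATF4 acts through an element that pairs a C/EBP with an ATF motif, abbreviated CARE. Its core letters TGATGNAA were looked for on both strands in RefSeq promoter windows (GRCm38.p6, 250 bases before to 50 after a gene's start), which exist for 28 members in 29 windows. They occurred in 4 member windows (13.8%) and in 3.97% of all 32851 windows. These are shown because the 3 genes, which share the letters, changed differently, with Chac1 at -1.54, Herpud1 at -0.69 and Asns at 0.05; capitals mark the element, on the gene's strand. The fourth, in Trib3, lies after the RefSeq start site. The Chac1 stretch is chr2:119351029-119351076 (plus strand), the Herpud1 stretch chr8:94386297-94386344 (plus) and the Asns stretch chr6:7693210-7693252 (minus).
Chac1: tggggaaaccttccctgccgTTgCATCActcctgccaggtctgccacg
Herpud1: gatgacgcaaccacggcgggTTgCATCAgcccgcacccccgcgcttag
Asns: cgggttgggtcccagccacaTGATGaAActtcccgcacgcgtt
A match describes letters and is not evidence of binding. ATF4 targets were among the members by choice, so the shares of windows do not test for an excess.

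The 14 chaperones and folding enzymes showed no common direction, with 5 higher, 4 lower and 5 not called (median 0.11). The called share was 64.3%, against 60.2% of all tested genes (median 0.03). With library size only, 11 were called higher and 2 lower (median 0.49). That scaling called 6738 of all 13214 tested genes higher and 2240 lower (median 0.41). It thus moved the median of all genes too, and the direction of this group rests on the scaling. Without DMSO replicate 2, 3 were called higher, and without BMS-582949 replicate 2 the median was 0.04. Hspa5 encodes BiP, the ER's HSP70 and the standard marker of the unfolded protein response (chromosome 2, 34771970 to 34777547). It was at 589 and 577 CPM in DMSO and 624 and 615 CPM with the inhibitor. The change of 0.09 ± 0.06 was not called (edgeR adjusted p = 0.23), although both treated libraries were slightly higher. Hsp90b1, the ER's HSP90 (GRP94), was at 395 and 371 CPM against 463 and 443 CPM, a change of 0.24 ± 0.06 (edgeR adjusted p = 0.0057). Of its exon bases, 15.7% are shared with another model.

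The partners of BiP split. Hyou1, an HSP110-type exchange factor, rose from 87.1 and 92.7 CPM to 115 and 118 CPM (0.38 ± 0.06 SE, edgeR adjusted p = 2.7e-04). The J-domain co-chaperone genes Dnajb9, Dnajc3 and Dnajb11 fell, the last 2 not with library size only (0.05 and 0.18, where Dnajb11 was called higher). Dnajb9 (ERdj4), which also restrains IRE1, was at 45.4 and 47.2 CPM in DMSO and 24.3 and 23.8 CPM treated (-0.94 ± 0.10 SE, edgeR adjusted p = 3.0e-06). Dnajc3 (P58IPK), an inhibitor of PERK, changed by -0.33, and Dnajb11 by -0.20 (adjusted p = 0.022, edgeR). The Dnajb11 call held under 9 of the 13 alternatives. It also ended with upper-quartile scaling, and when DMSO replicate 2 (-0.14) or BMS-582949 replicate 1 (-0.16) was left out. Relative to Hspa5 in the same library, Dnajb9 was 2.05-fold lower, at 0.0771 and 0.0819 in DMSO and 0.0390 and 0.0387 treated. Sdf2l1, a partner of the ERdj proteins, was at 65.1, 60.9, 64.3 and 73.0 CPM in the same order, and its groups overlap.

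The lectin chaperones calreticulin and calnexin, which hold glycoproteins during folding, parted. Calr was the member with the most counts, and per kilobase of merged exon it was at 731 CPM in DMSO, ahead of Pdia3 at 167 and Atf4 at 149. It lies on chromosome 8 (84841850 to 84846934). Its levels were 2017 and 2196 CPM in DMSO and 1115 and 1097 CPM treated, which is -0.93 ± 0.07 (SE, edgeR adjusted p = 2.4e-07). Canx, the membrane-bound relative, was at 340 and 343 CPM in DMSO and 369 and 387 CPM treated. That change of 0.15 ± 0.06 was not called (edgeR adjusted p = 0.054), and it was called under 5 of the 13 alternatives. Calr over Canx was 5.93 and 6.41 in DMSO and 3.02 and 2.83 treated.

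Because of Calr, the share of all counts depends on whether it is included. The 33 members held 0.586% and 0.602% of counts in DMSO and 0.623% and 0.617% of counts with the inhibitor. Without Calr the shares were 0.409% and 0.411% in DMSO and 0.495% and 0.493% treated. These shares are on the library-size scale, on which the median log2 fold change of all tested genes was 0.41.

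Among the protein disulfide isomerases, which form and rearrange disulfide bonds, Pdia4 rose from 80.2 and 86.5 CPM to 111 and 113 CPM (0.42 ± 0.07 SE, edgeR adjusted p = 1.2e-04). Pdia6 was at 213 CPM in both DMSO libraries and 238 and 243 CPM treated, and its change of 0.18 was called (adjusted p = 0.021, edgeR). The Pdia6 call ended with RLE scaling, and also when either DMSO library or BMS-582949 replicate 2 was left out. Pdia3, the partner of calnexin and calreticulin, was at 518 and 528 CPM in DMSO and 527 and 539 CPM treated, and the groups overlap (0.03 ± 0.06). Creld2 changed by 0.29 (edgeR adjusted p = 0.013), which was not called without DMSO replicate 2 (adjusted p = 0.056). The secreted ER stress factor Manf was at 148 and 146 CPM in DMSO and 132 and 145 CPM treated, and was not called (-0.09).

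Many ER chaperone genes carry the ER stress response element (ERSE), in which the letters CCAAT, bound by NF-Y, and CCACG, bound by ATF6 or XBP1, are separated by 9 bases. On either strand this pair was found in 8 of 29 member windows (27.6%), against 39 of all 32851 (0.119%). The members were chosen as genes of the ER stress response, so these shares do not test for an excess. The same holds for ERSE-II below. Members with the element are shown because their changes had no common direction with TMM scaling. Hsp90b1 (0.24), Pdia6 (0.18) and Creld2 (0.29) were called higher, Calr (-0.93), Dnajc3 (-0.33) and Syvn1 (-0.27) lower, and Hspa5 (0.09) and Canx (0.15) were not called. With library size only, Calr (-0.55) stayed lower, Dnajc3 (0.05) and Syvn1 (0.11) were not called, and the others were called higher. Capitals mark the CCAAT and CCACG boxes or their reverse complements, on the gene's strand; Hsp90b1 has the element at 2 places, of which the one nearer the start is shown.
Hspa5: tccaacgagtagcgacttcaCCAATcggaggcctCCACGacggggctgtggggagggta
Hsp90b1: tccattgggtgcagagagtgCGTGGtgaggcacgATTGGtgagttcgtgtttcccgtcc
Calr: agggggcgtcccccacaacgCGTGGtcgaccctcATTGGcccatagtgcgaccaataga
Canx: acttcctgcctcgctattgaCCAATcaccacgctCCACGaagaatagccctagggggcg
Pdia6: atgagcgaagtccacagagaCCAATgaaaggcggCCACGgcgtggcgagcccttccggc
Creld2: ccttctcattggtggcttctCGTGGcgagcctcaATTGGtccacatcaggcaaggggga
Dnajc3: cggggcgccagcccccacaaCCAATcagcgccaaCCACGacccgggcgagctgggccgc
Syvn1: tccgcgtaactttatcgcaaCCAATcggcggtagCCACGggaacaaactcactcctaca
The stretches are chr2:34772005-34772063 (plus strand) for Hspa5, chr10:86705513-86705571 (minus) for Hsp90b1, chr8:84847055-84847113 (minus) for Calr, chr11:50325780-50325838 (minus) for Canx, chr12:17266471-17266529 (plus) for Pdia6, chr15:88819500-88819558 (plus) for Creld2, chr14:118937807-118937865 (plus) for Dnajc3 and chr19:6046512-6046570 (plus) for Syvn1. In Hspa5 the element ends 47 bases before the RefSeq start, and in Calr 144 bases before it. The gene positions in the text are GENCODE's, and by these the Hspa5 and Asns stretches lie within the gene. The related ERSE-II, ATTGG and CCACG with 1 base between them, was in the windows of Herpud1 and Dnajb11 and in 0.0365% of all windows. The XBP1 site TGACGTGG was in no member window and in 0.676% of all windows, which says only that these letters are not in the windows searched.

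All 6 genes of ER-associated degradation, which returns misfolded proteins to the cytosol for destruction, were called, against 60.2% of all tested genes. Among the 6 genes, 4 were lower and 2 higher (median -0.31). Under library size alone, 2 stayed lower and 2 higher (median 0.07, against 0.41 for all tested genes). Edem1, a mannosidase-like protein that picks misfolded glycoproteins, was at 471 and 499 CPM in DMSO and 208 and 209 CPM with BMS-582949, and changed by -1.22 ± 0.06 (SE, edgeR adjusted p = 5.6e-09). It lies on chromosome 6 (108828641 to 108859356). Herpud1, a scaffold of the degradation complex and a strong stress target, was at 96.3 and 109 CPM against 59.9 and 67.5 CPM (-0.69 ± 0.08 SE, edgeR adjusted p = 1.2e-05). Both genes stay lower with library size only, at -0.84 and -0.31.

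Sel1l and Syvn1 encode the adaptor and the ubiquitin ligase (HRD1) of one complex. Sel1l rose from 95.6 and 106 CPM to 144 and 143 CPM (0.50 ± 0.07 SE, edgeR adjusted p = 3.5e-05). Syvn1 was at 45.6 and 47.4 CPM in DMSO and 33.8 and 43.2 CPM treated, and its treated libraries lie well apart. Its change of -0.27 was called at the margin (edgeR adjusted p = 0.048) and was not under 6 of 13 alternatives, among them the fits without DMSO replicate 1 (-0.30), DMSO replicate 2 (-0.24) and BMS-582949 replicate 1 (-0.11). Without BMS-582949 replicate 2 the change was -0.48. The derlins, membrane proteins of the export channel, also parted. Derl1 went from 170 CPM in both DMSO libraries to 134 CPM in both treated ones (-0.35; 0.04 with library size only), and Derl2 from 61.3 and 58.7 to 75.1 and 86.4 CPM (0.43 ± 0.08 SE, edgeR adjusted p = 4.8e-04). Edem1 over Sel1l was 4.93 and 4.70 in DMSO and 1.44 and 1.47 treated, 3.31-fold lower.

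**Figure D4:**
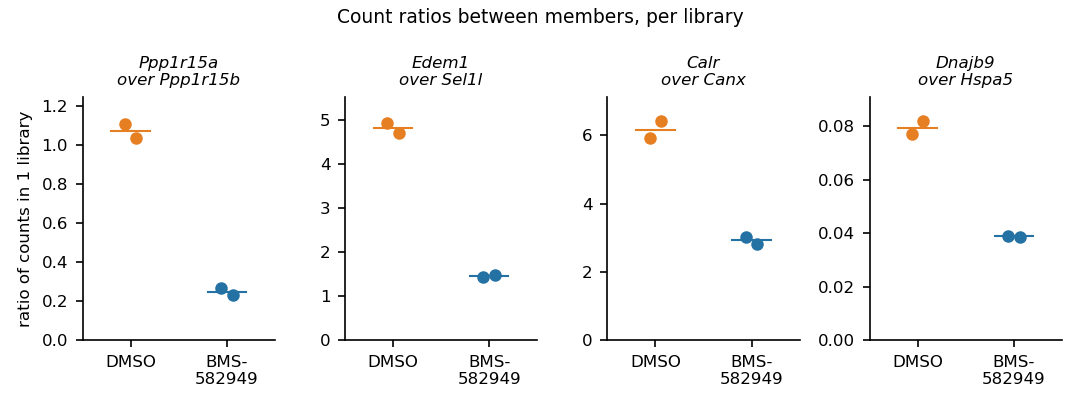
Ratio of the counts of 2 members within each library (y axes start at 0), for DMSO in orange and BMS-582949 in blue, with the mean as a bar. In each of the 4 panels both treated libraries lie below both DMSO libraries, by 4.34-fold for Ppp1r15a over Ppp1r15b, 3.31-fold for Edem1 over Sel1l, 2.11-fold for Calr over Canx and 2.05-fold for Dnajb9 over Hspa5.

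Other genes of the ER pathway were followed in 7 lists of 117 genes, of which 115 were tested. Of these, 29 rose and 53 fell (median -0.17), a called share of 71.3%, against 60.2% of all tested genes. Among all tested genes, 30.5% were called higher and 29.7% lower. With library size only, 58 of the ER pathway genes rose and 18 fell (median 0.21). That scaling called 6738 of all 13214 tested genes higher and 2240 lower (median 0.41). Among 19 genes of the translocon and signal peptide handling, 11 fell and 1 rose (8 higher and 1 lower with library size only). The BiP exchange factor gene Sil1 went from 77.5 and 83.1 to 35.9 and 36.5 CPM (-1.15 ± 0.07 SE, edgeR adjusted p = 4.6e-08), opposite to Hyou1, and the translocon-associated gene Ssr1 rose by 0.48. N-glycosylation and glycan control had 5 higher and 5 lower of 15 (10 and 2 with library size only), with the folding sensor Uggt1 at 0.41 and the glucosidase subunit Prkcsh at -0.56. Of 17 further oxidoreductases and folding factors, 9 fell and 4 rose (3 and 7 with library size only). Prdx4, the ER peroxiredoxin, rose from 70.5 and 69.3 to 135 and 143 CPM (0.99), and the ER oxidase gene Ero1b changed by -0.80.

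Further degradation genes fell in 10 and rose in 2 of 17 tested cases (4 and 6 with library size only; 0 or 1 rose when any single library was left out), led by the deglycosylase gene Ngly1 (-1.24) and the ubiquitin-conjugating enzyme gene Ube2g2 (-0.85). Among all tested genes, 30.5% were called higher and 29.7% lower (6738 and 2240 of 13214 with library size only). ER-phagy receptors, which deliver ER to lysosomes, fell in 5 of 6 cases (2 of 6 with library size only, where 1 rose). Tex264 went from 211 and 216 to 53.2 and 55.2 CPM (-1.98 ± 0.06 SE, edgeR adjusted p = 1.4e-10) and Retreg1 (FAM134B) from 60.0 and 63.4 to 20.2 and 22.4 CPM (-1.53). Of 19 other stress kinases and regulators, 6 rose and 7 fell (12 and 2 with library size only; 4 fell without DMSO replicate 1). Atf6b, the relative of Atf6, was at 57.7 and 58.7 CPM in DMSO and 84.3 and 90.8 CPM treated (0.59). The membrane-bound transcription factor genes Creb3 and Creb3l2 changed by -0.95 and -1.05. Exons of Creb3 share 20.8% of their bases with another model.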

How the data were processed

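The authors deposited raw counts for each gene model (whole numbers, unequal column sums) in 4 columns, which were matched to samples by name. The titles of the treated samples read BMS-584929, where the columns and the treatment label read BMS-582949. The submitters' processing notes name HISAT2 2.0.4, Trimmomatic 0.36 and DESeq2 1.30.1, and the build GRCm38. How reads were counted, with which annotation and whether by strand, is not given in the sources used here, so reads of overlapping models cannot be told apart. Symbols and positions came from GENCODE M21 for 22022 of 22036 Ensembl identifiers. Groups follow the treatment label, since the treatment protocol names the compound for all samples.

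Genes were filtered with filterByExpr (minimum count 10), scaled with TMM and tested with the quasi-likelihood F test of edgeR 4.0.16 in R 4.3.3, without covariates and with 2 residual degrees of freedom. The script was tested on simulated data. Alternatives were RLE, upper-quartile and library-size scaling, other filters, DESeq2 1.42.0, limma-voom (limma 3.58.1), a replicate block, leaving out each library and stricter calls; a crossed block was added after seeing the data. The members and lists were chosen with earlier results of these data known. All members may be named, with up to 2 called genes per direction of each other ER list at a mean CPM of at least 5, and 7 marker genes. Promoter sequences are RefSeq's (GRCm38.p6).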

Additional observations from a re-analysis of the deposited data

How the results depend on the processing

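With library size only, 16 members were called higher and 11 lower (8 and 17 with TMM), and their median log2 fold change was 0.18. Other ER genes gave 58 and 18, and all genes 6738 and 2240. With that scaling the sign changed for Atf6 (0.23), Xbp1 (0.087), Dnajb11 (0.18), Dnajc3 (0.049), Manf (0.29), Trib3 (0.25, not called), Syvn1 (0.11) and Derl1 (0.036). Requiring a 2-fold change left 0 members higher and 5 lower, 5 and 8 of the other ER genes, and 1314 and 1499 of all genes. Leaving out single libraries gave member medians from -0.30 to -0.16, with 6 to 9 called higher and 16 to 17 lower. Of 429 member values in the alternative fits, 34 did not keep the call. The fit with the replicate number as a block called 8 members higher and 17 lower, and 3923 and 3830 of all genes. Differences between replicates 1 and 2 correlated at -0.117 across genes between the groups, so the numbers were not taken to pair the samples. A crossed pairing called 9 members higher and 17 lower. With 2 libraries a group, the spread of each gene is estimated largely from other genes, and changes as small as those of Pdia6 or Syvn1 lie near the limit of detection.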
